A study of Mus musculus with 26 samples.

Results

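Far intergenic accessible sites outside repeats were described in Kupffer cells, liver-resident macrophages, across strains and after lipopolysaccharide (LPS). ATAC-seq marks open chromatin by where a transposase can insert into DNA. The sites were the peaks on chromosomes 1 to 19 that both annotation columns of the deposited table call intergenic, so that neither a gene nor a repeat was assigned, and that lie over 100 kb from the nearest annotated transcription start. This rule held for 3237 of the 96381 peaks of the inbred table, of which 94171 are autosomal. It used no tag count. For comparison, 20323 autosomal intergenic peaks outside repeats lie 100 kb or closer, and 14224 autosomal peaks are promoters.

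The series holds 26 libraries, 17 from inbred mice and 9 from hybrids. Male mice of 8 to 12 weeks were fasted overnight and either received LPS (E. coli O114:B4, 0.1 mg/kg) into the peritoneum 2 h before death or were left uninjected. Uninjected mice gave 4 libraries for each of A/J, C57BL/6J and BALB/cJ, LPS-treated C57BL/6J mice gave 3 and LPS-treated BALB/cJ mice gave 2. CB6F1/J mice, the first-generation cross of C57BL/6J and BALB/cJ, gave 4 uninjected and 5 LPS libraries. Viable CD146-negative, CD45-positive cells with high F4/80 and intermediate CD11b were sorted, every liver having been digested in the transcription inhibitor flavopiridol.

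Open chromatin far from any promoter is mostly enhancer or insulator sequence, which can act on promoters over long distances through chromatin looping. In macrophages, PU.1 (an ETS factor that sets the lineage) and C/EBP, IRF and MAF factors occupy enhancers in the resting state. LPS acts through Toll-like receptor 4 to activate NF-kB, interferon regulatory factors and the Fos and Jun proteins of AP-1, which then bind both existing and newly opened enhancers. Each site below is called by the nearest gene of the deposited table. That name gives its position only, since no measurement here ties a site to a gene.

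The 8 sequences that follow are shown because the results turn on them: 1700016G22Rik, Gm1653 and H2afy3 rose from near background after LPS, Cldn23 and Zfp462 differed between strains and between alleles, Il6 is the one cytokine gene with members, and Cxcr4 and Hif1a held some of the highest counts. Each is the 201-bp peak read from the RefSeq copy of the mm10 genome, forward strand, 5′ to 3′. Capitals mark matches to the letters of AP-1 (TGANTCA), C/EBP (TTGCNNAA), IRF (GAAANNGAA) and NF-kB (GGANNTTCC), N being any base; a match on the reverse strand is printed as it reads on the forward strand.
1700016G22Rik, chr13:5302233-5302433: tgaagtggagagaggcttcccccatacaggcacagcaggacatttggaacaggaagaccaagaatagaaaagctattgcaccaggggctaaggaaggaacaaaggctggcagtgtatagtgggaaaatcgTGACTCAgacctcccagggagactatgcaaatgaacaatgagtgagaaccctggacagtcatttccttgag
Gm1653, chr3:149170316-149170516: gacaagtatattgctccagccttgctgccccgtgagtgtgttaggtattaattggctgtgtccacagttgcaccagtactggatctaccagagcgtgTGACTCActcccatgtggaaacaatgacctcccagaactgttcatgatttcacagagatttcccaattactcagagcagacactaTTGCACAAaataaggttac
H2afy3, chr15:62321024-62321224: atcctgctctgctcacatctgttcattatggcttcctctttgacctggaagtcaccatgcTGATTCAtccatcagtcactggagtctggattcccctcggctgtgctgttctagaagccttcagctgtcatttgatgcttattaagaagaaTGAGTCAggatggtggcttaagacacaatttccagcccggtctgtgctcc
Cldn23, chr8:35716585-35716785: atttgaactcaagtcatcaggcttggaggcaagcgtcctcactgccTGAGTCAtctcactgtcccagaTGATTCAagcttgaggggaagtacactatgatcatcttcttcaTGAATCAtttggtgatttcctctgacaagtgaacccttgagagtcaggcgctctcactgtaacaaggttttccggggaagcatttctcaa
Zfp462, chr4:54527804-54528004: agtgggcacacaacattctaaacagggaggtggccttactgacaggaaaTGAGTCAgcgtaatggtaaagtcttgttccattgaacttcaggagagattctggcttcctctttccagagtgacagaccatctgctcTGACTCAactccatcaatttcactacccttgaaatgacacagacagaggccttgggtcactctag
Il6, chr5:29893933-29894133: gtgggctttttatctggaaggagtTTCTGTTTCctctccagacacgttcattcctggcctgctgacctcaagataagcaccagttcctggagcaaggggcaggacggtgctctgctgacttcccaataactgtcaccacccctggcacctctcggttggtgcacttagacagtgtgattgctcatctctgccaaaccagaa
Cxcr4, chr1:128722175-128722375: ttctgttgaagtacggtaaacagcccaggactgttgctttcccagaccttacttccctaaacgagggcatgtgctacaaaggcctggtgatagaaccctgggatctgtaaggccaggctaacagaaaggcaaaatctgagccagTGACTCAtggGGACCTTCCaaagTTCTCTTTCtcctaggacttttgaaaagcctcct
Hif1a, chr12:73779324-73779524: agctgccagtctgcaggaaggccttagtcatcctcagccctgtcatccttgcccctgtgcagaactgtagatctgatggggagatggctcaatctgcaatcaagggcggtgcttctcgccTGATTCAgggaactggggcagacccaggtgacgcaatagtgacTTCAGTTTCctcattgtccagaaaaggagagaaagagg

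The H2afy3 and Cldn23 peaks lie in the body of a non-coding gene of the GENCODE annotation and the other 6 lie in no GENCODE gene. The nearest protein-coding start of GENCODE was Myc at 336 kb for the H2afy3 peak, Gm19410 at 49.1 kb for the Cldn23 peak and Klf6 at 559 kb for the 1700016G22Rik peak. AP-1 letters occur once in the 1700016G22Rik, Gm1653, Cxcr4 and Hif1a peaks, at 2 places in the H2afy3 and Zfp462 peaks and at 3 places in the Cldn23 peak, while the Il6 peak holds an IRF match and no AP-1 letters.

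The 17 inbred libraries held 2.08 to 7.54 M tags in peaks, except 1 BALB/cJ control library (replicate 4) with 47.2 M. The hybrid libraries held 11.4 to 24.9 M perfectly mapped tags in peaks, but only 262902 to 573430 tags that could be given to 1 allele. Perfectly mapped tags, here and below, are those on mm10, the C57BL/6J genome. BALB/cJ-allele tags over a parental variant are therefore not among them. Among inbred mice, 39.8 to 49.7% of the values of a control library were not whole, stepping by 0.5 tags, while every value of the 5 LPS libraries was whole, so that treatment and read handling cannot be told apart there. The 10 macrophage and Kupffer cell genes checked all had promoter peaks, with summed normalised counts of 1252 to 1596 in control libraries, 879 to 1101 in C57BL/6J LPS and 803 to 875 in BALB/cJ LPS. No promoter peak was found at any of 8 hepatocyte or 7 lymphocyte genes. Marker peaks of other cells moved with strain and treatment. Peaks at 2 of 4 monocyte genes summed to 43.3 to 48.3 in BALB/cJ controls, 55.4 to 88.9 in BALB/cJ LPS, 15.6 to 27.9 in C57BL/6J controls, 5.58 to 37.9 in C57BL/6J LPS and 38.3 to 66.3 in A/J. Those at 3 of 7 endothelial genes gave 38.2 to 103 and 48.4 to 61.0 for BALB/cJ before and after LPS, 17.7 to 25.3 and 29.5 to 43.0 for C57BL/6J, and 22.4 to 50.1 in A/J. At 1 of 5 neutrophil genes BALB/cJ controls had 58.5 to 89.9, C57BL/6J controls 29.6 to 63.8 and A/J 20.0 to 33.9, with 22.5 to 38.3 in the LPS libraries. At 1 of 6 stellate cell genes the controls had 7.65 to 28.4 and the LPS libraries 3.48 to 7.02. The part of such cells in the strain and LPS differences given here was not tested. Fewer sorted cells of a type and less open chromatin per cell cannot be told apart in such bulk libraries. The labels number replicates without saying that each is a separate animal, so p-values measure the spread between these libraries.

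The members lay from just over 100 kb to 1676 kb from the nearest start, with a median of 163 kb. Of them, 2141 lay within 200 kb, 930 between 200 and 500 kb and 166 farther. They were downstream of that gene in 1581 cases (48.8%). Against the independent GENCODE annotation, 2568 lay in no gene body, 559 in a non-coding gene and 110 in a protein-coding gene, and 176 were closer than 100 kb to a protein-coding start. The gene named by the deposited table was also the nearest protein-coding gene of GENCODE for 2060 members (63.6%). The label far intergenic therefore held for most members but not for all of them.

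In base composition the members were unlike promoters. Their median GC content was 45.8%, beside 49.3% over all autosomal peaks and 62.7% over promoters, and they held a median of 2 CpG dinucleotides, beside 3 and 15. They were also weaker. The median of the mean normalised count over the 17 inbred libraries (tags in a 1000-bp window, scaled to a common library size) was 15.9, beside 19.4 over all autosomal peaks and 65.1 over promoters. All 5 lists of reproducible peaks, 1 for each inbred group, held 999 members (30.9%, beside 39.8% of autosomal peaks and 69.8% of promoters). The LPS lists alone held 449 members (13.9%, beside 11% of autosomal peaks), and the control lists alone held 968 (29.9%, beside 27.3%).

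Enhancer-type motifs were more frequent in the members than in autosomal peaks of the same width, which include promoters. Intergenic peaks 100 kb or closer are not set beside them here, so no share is shown to be particular to far sites. AP-1 letters occurred in 647 members (20.0%, beside 14.3% of autosomal peaks and 5.40% of promoters). PU.1 letters (GAGGAAGT) occurred in 358 (11.1%, beside 8.59%), C/EBP letters in 540 (16.7%, beside 11.5%) and IRF letters in 398 (12.3%, beside 8.88%). The MAF half-site TGCTGA, the core of the element that MAF factors recognise, occurred in 749 (23.1%, beside 18.6%). For NF-kB (145 members, 4.48%, beside 3.99%) and RUNX (TGTGGT, 520 members, 16.1%, beside 15.9%) the shares were close to those of all autosomal peaks. CTCF, the insulator protein, went the other way, with a match in 118 members (3.65%, beside 5.17%). Hepatocyte-type HNF4 letters (CAAAGTCCA) occurred in 6 members, MITF/TFE letters (TCACGTGA) in 10 and an LXR DR4 element in 11. Both strands were searched, and a MAF half-site can overlap an AP-1 match.

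The members clustered along the genome. The median gap between neighbours was 13.1 kb, and linking neighbours up to a distance just under that gap gave 1657 runs, 995 of a single member and 121 of 5 or more that together held 876 members. Counting windows of 957 members (29.6%) overlapped that of another peak, beside 46.0% of autosomal peaks, so such members share tags. The 3237 members had 873 nearest genes. Prdm1, which encodes the transcriptional repressor Blimp-1, was the nearest gene of 40 members, Klf4 of 29, Maf of 25 and Zeb2 of 24, the last a repressor needed for tissue macrophage identity. Chromosome 10 held 393 members (6.75% of its peaks) and chromosome 17 only 53 (1.21%).

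The share of tags in far intergenic sites was higher in every LPS library than in the controls of its genotype, a difference that did not pass the adjusted tests. The share of autosomal peak tags that fell in the members was 2.18% ± 0.07 (SD, n = 4) in C57BL/6J controls and 2.68% ± 0.12 (n = 3) after LPS. In BALB/cJ it was 2.43% ± 0.25 (n = 4) and 2.98% ± 0.02 (n = 2), and in CB6F1/J, over all perfectly mapped tags, 2.40% ± 0.07 (n = 4) and 2.68% ± 0.08 (n = 5). A/J controls, at 2.12% ± 0.19 (n = 4), overlapped both other control groups. Exact two-sided permutation tests gave p = 0.0571 for C57BL/6J, p = 0.133 for BALB/cJ and p = 0.0159 for CB6F1/J, each the smallest value that its number of libraries allows. Adjusted over 35 such tests, all chosen after the values were seen, they became 0.286, 0.333 and 0.139. The share in intergenic peaks 100 kb or closer rose as well, so the rise was not particular to far sites. That share was 15.8 to 16.3% in C57BL/6J control libraries and 17.6 to 19.2% after LPS. In BALB/cJ it was 16.7 to 17.5% and 19.5 to 19.8%, and in CB6F1/J 16.6 to 17.4% and 18.2 to 18.7%. These values are given without a test. The share of tags in promoters moved the other way, from 35.2 to 41.0% in inbred control libraries to 28.4 to 34.5% in LPS libraries.

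**Figure D1:**
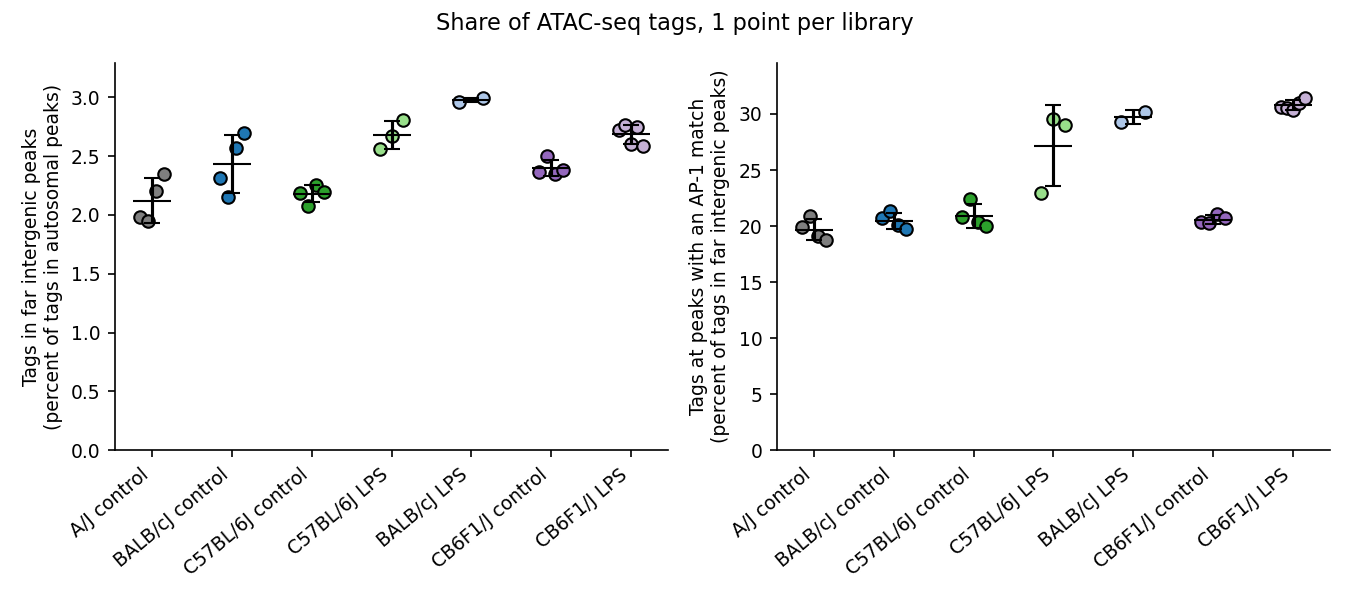
Percent of autosomal peak tags in far intergenic peaks (left) and percent of the tags in those peaks that fall at peaks with an AP-1 match (right), 1 point per library, with bars at the mean ± SD of each of 7 groups. In C57BL/6J, BALB/cJ and CB6F1/J all LPS points sit above all control points in both panels, and C57BL/6J LPS 1 is the lowest LPS library on the right at 23.0%.

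Peak by peak, gains outnumbered losses in both inbred strains. A peak is called here when edgeR's quasi-likelihood test gave a Benjamini-Hochberg adjusted p below 0.05 over all peaks tested and an absolute log2 ratio above 1. In C57BL/6J, 2975 members passed the minimum mean count of 4, of which 544 (18.3%) were called higher after LPS and 138 (4.64%) lower, against 12.3% and 8.07% of all peaks tested. In BALB/cJ 681 of 3111 (21.9%) were called higher and 288 (9.26%) lower, against 16.2% and 11.3% of all peaks. The median log2 ratio of the members tested was 0.22 in C57BL/6J (all autosomal peaks -0.03, promoters -0.36) and 0.12 in BALB/cJ (-0.06 and -0.44). Promoters were called higher in 2.70% and lower in 12.8% of cases in C57BL/6J. In BALB/cJ these shares were 4.98% and 19.1%.

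Intergenic peaks 100 kb or closer stood between the members and all peaks in C57BL/6J, with 15.2% higher and 5.10% lower. In BALB/cJ this held for gains, at 19.4%. Their losses there, at 8.12%, were below both the 9.26% of the members and the 11.3% of all peaks. Just inside the limit, at 100 to 110 kb, 63 of 344 members tested were called higher and 17 lower in C57BL/6J. Just outside it, at 90 to 100 kb, 77 of 410 intergenic peaks were called higher and 19 lower. The shares on the sides of the limit were thus close. By distance, 18.4% of 1980 members were called higher at 100 to 200 kb, 19.3% of 844 at 200 to 500 kb and 10.6% of 151 beyond 500 kb, and in BALB/cJ 22.2%, 21.7% and 18.5%. The farthest members thus had the lowest share in both strains, given without a test.

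Gains were rare among the members of highest count. Shares of all autosomal peaks by count are not given beside them, so this is not shown to be particular to far sites. In C57BL/6J 165 of 736 members with a mean normalised count of 16 to 32 were called higher, but only 1 of the 122 with the highest means. At a GC content of 45 to 50%, 20.9% of members and 16.5% of autosomal peaks were called higher. At 55% or more it was 10.4% of members, beside 3.80% of autosomal peaks, with 3.05% and 14.1% called lower. C57BL/6J LPS 1 held the lowest of the 3 LPS values at 457 of the 544 members called higher (84.0%). Without C57BL/6J LPS 3 the calls in that strain fell to 409, and without BALB/cJ LPS 2 those in BALB/cJ fell to 545. Scaling by total tags instead of the TMM factors moved the median of all peaks from -0.03 to 0.07 in C57BL/6J and from -0.07 to 0.06 in BALB/cJ, and that of the members from 0.22 to 0.32 and from 0.12 to 0.24.

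**Figure D2:**
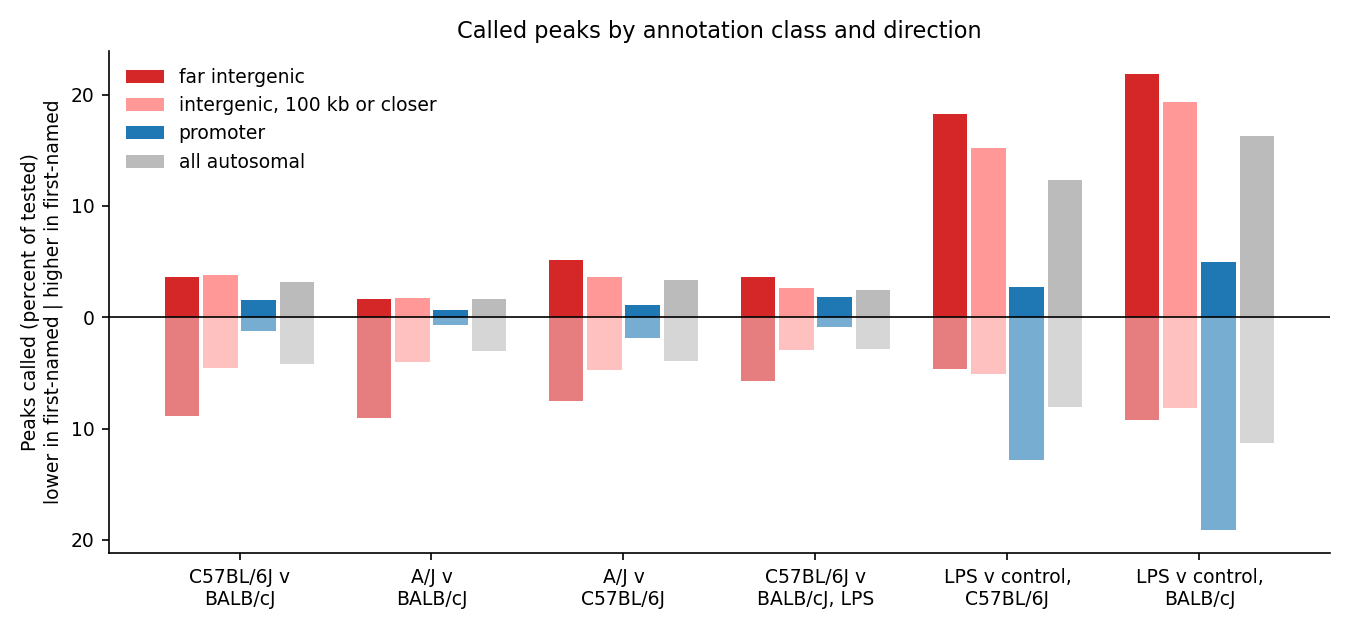
Percent of tested peaks called higher in the first-named group (upward bars) and lower (downward bars) for far intergenic peaks, intergenic peaks 100 kb or closer, promoters and all autosomal peaks, in 6 comparisons of inbred libraries. Far intergenic peaks have the tallest upward bars in both LPS comparisons (18.3% and 21.9%) and promoters the deepest downward ones (12.8% and 19.1%).

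Of 2865 members tested in both strains, 658 were called in C57BL/6J, 891 in BALB/cJ and 488 in both, which is 74.2% of the first and 54.8% of the second, beside 73.8% and 54.0% over all autosomal peaks tested in both. Among these 488, 410 were higher and 77 lower in both strains, and 1 went in opposite directions. Across the 2865 members the LPS log2 ratios of the strains, which share no library, had a Pearson r of 0.83 and a Spearman rho of 0.80, with read handling common to each treatment. Over those 87666 autosomal peaks r and rho were 0.80 and 0.77.

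**Figure D3:**
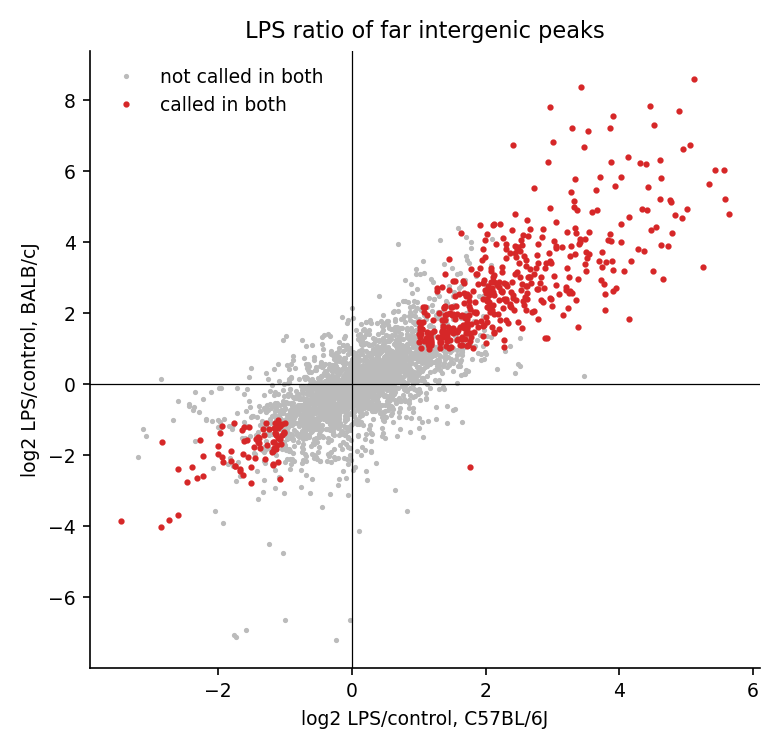
Log2 ratio of LPS to control in BALB/cJ against that in C57BL/6J for the 2865 far intergenic peaks tested in both strains, 1 point per peak, with the 488 called in both in red. Red points lie in the upper right (410) and lower left (77) quadrants, apart from 1.

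Members with AP-1 letters were called higher far more often than those without. In C57BL/6J 259 of 604 members with an AP-1 match were called higher (42.9%) and 8 lower, with a median log2 ratio of 1.06. Of 2371 without a match 285 were called higher (12%) and 130 lower, with a median of 0.08. BALB/cJ gave 317 of 621 (51.0%, median 1.22) against 364 of 2490 (14.6%, median -0.10). Read from the other side, AP-1 letters occurred in 47.6% of the members called higher in C57BL/6J, 5.80% of those called lower and 14.7% of those not called. The same shares over all autosomal peaks were 46.9%, 2.69% and 10.5%, so that the split was not particular to far intergenic sites.

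With PU.1 letters the split ran the other way. In C57BL/6J 25 of 332 members with a PU.1 match were called higher (7.53%) and 24 lower (7.23%), with a median log2 ratio of -0.01, and of the 2643 without one 519 were called higher (19.6%) and 114 lower (4.31%). BALB/cJ gave 9.48% of 348 higher with a match and 23.5% of 2763 without. The same split over all autosomal peaks is not given beside it, so it is not shown to be particular to far sites.

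Per library, the share of member tags that fell at AP-1 matches rose from 20.9% ± 1.04 to 27.2% ± 3.64 in C57BL/6J, where LPS 1 had 23.0% and the highest library 29.5%. It went from 20.5% ± 0.73 to 29.7% ± 0.63 in BALB/cJ and from 20.6% ± 0.37 to 30.8% ± 0.44 in CB6F1/J (mean ± SD, n as above). No LPS library overlapped a control library of its genotype, and the exact permutation p-values were again the smallest possible, 0.0571, 0.133 and 0.0159 (adjusted 0.286, 0.333 and 0.139). The share at PU.1 matches went from 13.4% to 11.1% in CB6F1/J (exact permutation p = 0.0159, adjusted 0.139), from 13.5% to 11.4% in BALB/cJ, where the groups did not overlap either (exact permutation p = 0.133), and from 13.3% to 12% in C57BL/6J, where they did (exact permutation p = 0.114). The share at IRF matches went from 13.3% to 12% in CB6F1/J (exact permutation p = 0.0159, adjusted 0.139) and from 13.0% to 12.3% in BALB/cJ (exact permutation p = 0.133), both without overlap. In C57BL/6J it went from 13.0% to 12.7%, with overlap (exact permutation p = 0.286). NF-kB matches kept nearly the same share, at 5.29% before and 5.30% after LPS for C57BL/6J, 4.98% and 5.01% for BALB/cJ, and 5.07% and 5.05% for CB6F1/J (exact permutation p of 0.914, 0.933 and 0.921). Over all autosomal peak tags the AP-1 share rose too. It went from 10.9% to 16.6% in C57BL/6J, 11.1% to 18.9% in BALB/cJ and 11.2% to 17.9% in CB6F1/J. The PU.1 share of all autosomal peak tags went from 8.22% to 8.48%, 8.54% to 8.59% and 8.41% to 7.93% in the same order.

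**Figure D4:**
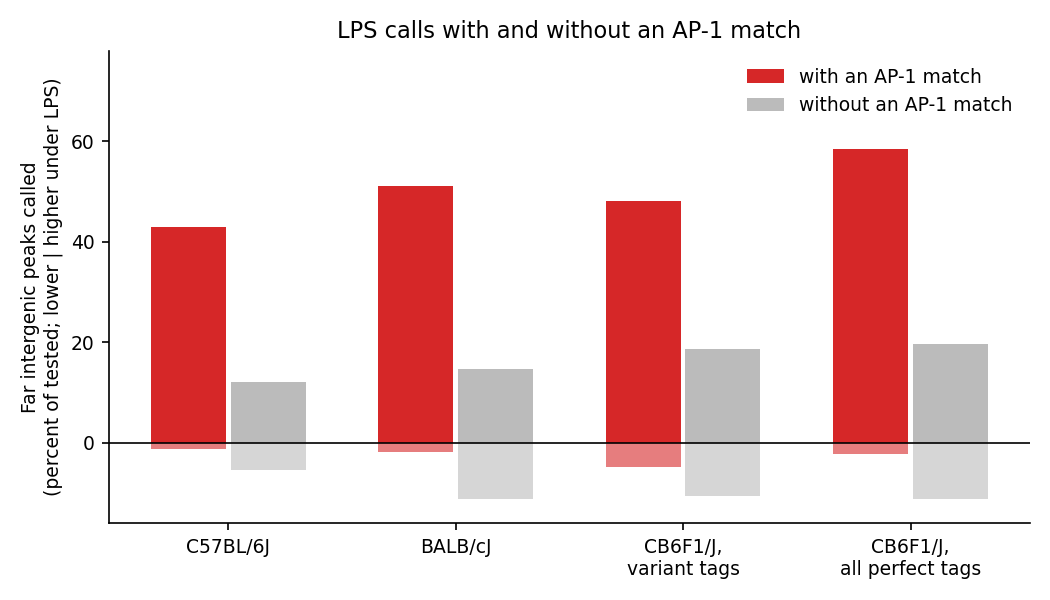
Percent of tested far intergenic peaks called higher (upward bars) and lower (downward bars) after LPS, with and without an AP-1 match, in C57BL/6J, BALB/cJ and CB6F1/J, the last by variant-spanning tags and by all perfectly mapped tags. Peaks with a match are called higher in 42.9%, 51.0%, 48.2% and 58.4% of cases and those without in 12%, 14.6%, 18.6% and 19.7%.

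Several members were near 0 before LPS. The peak near 1700016G22Rik had normalised counts of 1.16, 0, 1.30 and 1.33 in C57BL/6J controls and 7.02, 56.0 and 98.8 after LPS, and of 3.96, 2.93, 4.03 and 4.33 against 91.5 and 132 in BALB/cJ. The groups did not overlap in either strain, and the C57BL/6J LPS value of replicate 1 stood far below the other 2 (log2 ratio 5.65 ± 0.69 SE, edgeR adjusted p = 4.55e-07). The peak near Gm1653, 104 kb away, had 0.580, 1.60, 0 and 1.33 in C57BL/6J controls and 16.9, 40.8 and 64.5 after LPS (edgeR adjusted p = 1.17e-07). Its 3 control tags in all gave a ratio of 52.5, with a counting interval of 18 to 255. In BALB/cJ the same peak had 1.32, 0.975, 4.03 and 1.94 against 81.0 and 71.2, again without overlap.

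Members near the genes of inflammatory regulators were among those called higher. Il6 encodes a cytokine of the acute phase response, and the member printed above lies 119 kb from its start. Its counts were 5.27, 0.975, 4.03 and 2.86 in BALB/cJ controls and 19.2 and 52.8 after LPS (log2 ratio 3.53 ± 0.60, edgeR adjusted p = 2.51e-05). In C57BL/6J they were 11, 8.02, 11.7 and 9.31 against 8.43, 29.7 and 43.0, so that the groups overlapped through LPS 1 (1.45 ± 0.51, edgeR adjusted p = 0.0339). That call was lost with the replicate block, at a log2 ratio of 1.08, and without any of 5 single libraries.

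Nfkbiz encodes an inhibitor-family protein that serves as a coactivator of NF-kB at secondary response genes. A member 127 kb from it had 2.32, 9.63, 2.60 and 3.99 in C57BL/6J controls and 12.6, 26.3 and 46.2 after LPS (log2 ratio 2.77 ± 0.60, edgeR adjusted p = 0.000819), and 3.96, 3.90, 5.37 and 0.921 against 16.6 and 17.6 in BALB/cJ (2.68 ± 0.69, edgeR adjusted p = 0.00264). LPS and control values did not overlap in either strain. Runx1, a transcription factor of blood development, had a member 183 kb away with 0.580, 1.60, 1.30 and 2.66 in C57BL/6J controls and 4.21, 24.6 and 31.1 after LPS (3.84 ± 0.76, edgeR adjusted p = 0.000312).

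Near Maf, a transcription factor of macrophage identity, a member 314 kb away had 11, 16, 13.0 and 10.6 in C57BL/6J controls and 39.3, 110 and 142 after LPS (log2 ratio 2.98 ± 0.41, edgeR adjusted p = 2.21e-06). BALB/cJ gave 5.27, 5.85, 12.1 and 8.57 against 81.9 and 92.3 (3.42 ± 0.44, edgeR adjusted p = 4.16e-07). Every LPS library was above every control library. Klf6 encodes an early-response zinc finger factor. One member near it, chr13:6102392-6102592, had 1 tag in all in C57BL/6J controls (0.580, 0, 0 and 0) and 1.40, 7.64 and 27.1 after LPS, a ratio of 46.6 with a counting interval of 8.36 to 1840 (edgeR adjusted p = 0.000749). Another, chr13:6167185-6167385, had 0 in all 4 BALB/cJ controls and 34.8 and 29.9 after LPS, at least 144-fold higher against a floor of 3 tags over the group, or at least 27.3-fold without the deep BALB/cJ control 4 (edgeR adjusted p = 3.15e-07).

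Losses were fewer. The member assigned to Bach2, which encodes a transcriptional repressor, had 202, 225, 219 and 172 in C57BL/6J controls and 78.7, 69.6 and 85.2 after LPS (log2 ratio -1.39 ± 0.18, edgeR adjusted p = 1.37e-06). BALB/cJ gave 199, 187, 221 and 195 against 67.1 and 59.8, and the groups were far apart in both strains. The deposited table puts this peak 167 kb from the Bach2 start, but GENCODE puts it inside the gene, 11.7 kb from a start. The member nearest Fzd8, a Wnt receptor, had 66.1, 88.3, 67.6 and 82.4 in C57BL/6J controls and 1.40, 0.849 and 7.17 after LPS (-4.43 ± 0.48, edgeR adjusted p = 1.61e-07). It was also open in A/J controls (41.6, 62.4, 52.9 and 76.7) and at 0 in all 6 BALB/cJ libraries.

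The hybrid gave the LPS comparison in other mice. Of the 3237 members 2818 matched a peak of the hybrid table with at least 50% overlap both ways. With all perfectly mapped tags, 783 of the 2818 were called higher after LPS (27.8%) and 264 lower (9.37%), against 14.3% and 10.5% of all hybrid peaks, with a median log2 ratio of 0.29 beside -0.09. Those 210185 hybrid peaks include many without an inbred match and so are an unlike set. Among matched peaks also tested in C57BL/6J, 22789 of 73502 autosomal peaks were called in either direction, beside 990 of 2633 members. The 587 with AP-1 letters gave 343 higher and 13 lower (58.4% and 2.21%, median 1.41), and the 2231 without gave 440 and 251 (19.7% and 11.3%, median 0.10). Tags over parental variants (variant-spanning tags) were too few for most members, and 460 were tested with them. Of these, 110 were called higher (23.9%) and 44 lower (9.57%), against 14.4% and 11.8% of all hybrid peaks tested that way. The inbred autosomal peaks matched in the same way gave 19.4% and 11.9%.

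The peak near H2afy3, a gene of the H2A histone family, had 0.997, 0, 2.50 and 0 variant-spanning counts in CB6F1/J controls and 77.5, 94.3, 58.0, 68.3 and 68.8 after LPS (log2 ratio 6.20 ± 0.60, edgeR adjusted p = 4.46e-23). Inbred mice showed it too, with 4.64, 4.81, 6.50 and 9.31 against 35.1, 93.4 and 138 in C57BL/6J and 1.32, 4.88, 12.1 and 4.98 against 102 and 107 in BALB/cJ. No LPS value overlapped a control value in any of the 3 genotypes. Near Runx1 a second member, 260 kb away, had 5.98, 0, 1.25 and 0 in CB6F1/J controls and 40.3, 31.4, 48.5, 43.4 and 54.5 after LPS (4.37 ± 0.63, edgeR adjusted p = 1.88e-10). Bach2 again fell, at a neighbouring member with 103, 58.7, 57.5 and 118 against 36.5, 28.7, 45.4, 31.0 and 12 (-1.45 ± 0.32, edgeR adjusted p = 7.16e-05).

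Losses by variant-spanning tags in the hybrid did not all appear in its perfectly mapped counts, which lack BALB/cJ-allele tags over a variant. Of the 44 members called lower, 10 had 0 variant-spanning tags in every LPS library, and 15 were also called lower with all perfectly mapped tags, 2 of them among the 10. Near Plk2, a stress-response kinase gene, variant-spanning counts were 49.8, 69.7, 71.3 and 43.4 in controls and 0 in all 5 LPS libraries, while all perfectly mapped tags gave 352 ± 115 (SD, n = 4) and 404 ± 43.0 (n = 5), a log2 ratio of 0.20 ± 0.18 (edgeR adjusted p = 0.411). Near Zfat the variant-spanning counts likewise went from 15.9, 46.4, 32.5 and 18.3 to 0 in all 5, and the perfectly mapped counts from 109 ± 37.7 to 291 ± 61.7 (1.41 ± 0.23, edgeR adjusted p = 1.69e-05). Tmem2 and Hs3st3b1, also at 0 in every LPS library, did fall in perfectly mapped counts, by 1.09 (edgeR adjusted p = 5.16e-05) and by 1.18 (edgeR adjusted p = 0.0111) on the log2 scale. Over the hybrid table, 239 of 7724 peaks with at least 20 perfect tags in every library and at least 5 variant-spanning tags in every control library had none in any LPS library, and 0 of 7831 showed the reverse. The reason for this imbalance was not tested, so a loss by variant-spanning tags alone is not read as a loss of open chromatin. Gains were steadier, 90 of the 110 being called higher with all perfect tags too.

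Hybrid and inbred responses, which share no library, were set side by side with all perfectly mapped tags, a comparison added after the data were seen. Of 2633 members tested in both C57BL/6J and CB6F1/J, 516 were called in both (85.6% of 603 and 52.1% of 990), all in the same direction, 448 higher and 68 lower, with r = 0.85 and rho = 0.83 across members. Over 73502 autosomal peaks these shares were 76.1% and 49.4%, with r = 0.82 and rho = 0.77. For BALB/cJ and CB6F1/J it was 679 of 2727 members (79.7% of 852 and 66.3% of 1024), again all in the same direction, with r = 0.86 and rho = 0.86, beside 70.0% and 62.7%, r = 0.84 and rho = 0.80 over 74386 autosomal peaks.

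Variant-spanning tags gave fewer. Of 407 members tested in both C57BL/6J and CB6F1/J, 59 were called in both (67.8% of 87 and 42.4% of 139), 58 in the same direction, with r = 0.60 and rho = 0.65. Over 12493 autosomal peaks the shares were 61.8% and 39.0%, with r = 0.56 and rho = 0.61. For BALB/cJ it was 76 of 419 members (60.8% of 125 and 53.1% of 143), all in the same direction, with r = 0.63 and rho = 0.71, beside 56.6% and 49.3%, r = 0.58 and rho = 0.63 over 12631 autosomal peaks.

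Between the control strains, BALB/cJ held more of the differences than its partners. Against C57BL/6J, 1507 members passed the minimum mean count of 16, and 55 were called higher in C57BL/6J (3.65%, against 3.14% of all peaks) and 134 higher in BALB/cJ (8.89%, against 4.16%). Against A/J, 25 of 1486 were called higher in A/J (1.68%, against 1.58%) and 135 higher in BALB/cJ (9.08%, against 3.00%). Between A/J and C57BL/6J, 72 of 1409 were called higher in A/J (5.11%, against 3.29%) and 106 higher in C57BL/6J (7.52%, against 3.87%). Median log2 ratios of the members were -0.15, -0.16 and -0.02, beside 0.02, 0.02 and -0.01 over autosomal peaks. Intergenic peaks 100 kb or closer were called higher in BALB/cJ in 4.55% and 3.99% of cases. The comparisons share control libraries and so are not independent. The deep BALB/cJ control 4 weighs on them: without it, 106 members differed between A/J and BALB/cJ in place of 160.

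On the sides of the limit the shares were close here too. Against C57BL/6J, 23 of 178 members at 100 to 110 kb were called, beside 31 of 220 intergenic peaks at 90 to 100 kb. Against A/J these were 12 of 174 and 18 of 220. Farther away the called share was higher, at 11.9%, 13.0% and 19.7% for C57BL/6J against BALB/cJ at 100 to 200 kb, 200 to 500 kb and beyond, and 9.21%, 12.7% and 22.7% for A/J against BALB/cJ. Only 71 and 66 members were tested beyond 500 kb, and these shares are given without a test. For C57BL/6J against BALB/cJ controls 13.8% of 261 members with AP-1 letters and 12.3% of 1246 without were called. The same shares were 15.5% of 258 and 9.77% of 1228 for A/J against BALB/cJ and 15.6% of 243 and 12% of 1166 for A/J against C57BL/6J. Shares of all autosomal peaks with and without AP-1 letters are not given beside these.

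The clearest differences were sites open in one strain and at or near 0 in another. The member nearest Fat4, a cadherin gene 382 kb away, had normalised counts of 84.1, 99.5, 67.6 and 69.1 in C57BL/6J controls and 0 in all 4 BALB/cJ controls, with 6.17, 18.6, 18.3 and 15.6 in A/J. The C57BL/6J values were at least 357-fold higher against a floor of 3 tags, or at least 67.5-fold without the deep BALB/cJ control 4 (edgeR adjusted p = 1.42e-13). Near Gm35496, C57BL/6J controls had 194, 233, 150 and 89.1 and A/J 167, 173, 85.5 and 103, against 2.64, 0.975, 0 and 0.369 in BALB/cJ (log2 ratio 8.03 ± 0.46 for C57BL/6J against BALB/cJ, edgeR adjusted p = 3.20e-15). Only BALB/cJ was near 0 there, also after LPS (0.871 and 0).

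At the Cldn23 member, printed above and nearest to a tight-junction gene 110 kb away, C57BL/6J controls had 91.0, 88.3, 70.2 and 42.5, against 0, 0, 1.34 and 0.645 in BALB/cJ and 1.54, 0, 0 and 0 in A/J (log2 ratio 6.78 ± 0.46, edgeR adjusted p = 2.42e-13). Here C57BL/6J stood apart from both other strains. Its LPS libraries had 125, 144 and 151 and those of BALB/cJ 10.5 and 7.91. The reverse held at Zfp462, a zinc finger gene 420 kb from its member: BALB/cJ controls had 158, 207, 299 and 261 and A/J 113, 105, 140 and 169, against 2.32, 12.8, 9.10 and 13.3 in C57BL/6J (-4.84 ± 0.33, edgeR adjusted p = 2.57e-13).

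A pair of members near B230214G05Rik, a RIKEN transcript, were open in A/J and BALB/cJ and closed in C57BL/6J. At chr15:88128514-88128714, counts were 116, 104, 118 and 131 for A/J, 264, 201, 317 and 328 for BALB/cJ and 1.16, 0, 1.30 and 1.33 for C57BL/6J (log2 ratio of A/J to C57BL/6J 6.72 ± 0.37, edgeR adjusted p = 7.90e-15). At chr15:88101480-88101680 all 7 C57BL/6J libraries had 0, A/J had 21.6, 18.6, 20.3 and 39.1 and BALB/cJ had 47.5, 21.5, 49.7 and 50.9, so that C57BL/6J controls were at least 54.6-fold lower than BALB/cJ, or at least 51.0-fold without BALB/cJ control 4 (edgeR adjusted p = 3.78e-09). The windows are those of mm10, which is the C57BL/6J genome. For A/J and BALB/cJ, a count of 0 does not separate closed chromatin from sequence that the strain lacks.

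A/J was the strain at 0 for other members. The member 162 kb from Igf1, which encodes a growth factor that macrophages also secrete, had 0 in all 4 A/J libraries and 99.1, 104, 155 and 129 in C57BL/6J (at least 109-fold lower in A/J, edgeR adjusted p = 3.17e-12), with 5.27, 5.85, 4.03 and 2.95 in BALB/cJ. Near Ly86, which encodes the MD-1 partner of an LPS-receptor-like protein, A/J again had 0 in all 4 and C57BL/6J 70.1, 78.6, 67.6 and 75.8 (at least 65.6-fold lower, edgeR adjusted p = 7.79e-11). Near Ankrd55 A/J had 1.54, 0, 0 and 3.13 against 38.2, 34.1, 61.7 and 71.9 in BALB/cJ, a BALB/cJ to A/J ratio of 46.2 with a counting interval of 15.8 to 224 (edgeR adjusted p = 7.38e-09). In the other direction, near Pantr1, a neural non-coding RNA gene, A/J had 21.6, 25.2, 44.8 and 51.6 and BALB/cJ 1.32, 0, 0 and 0, a ratio of 479 (86.0 to 18915) from 1 tag, or 90.5 (16.2 to 3575) without BALB/cJ control 4 (edgeR adjusted p = 1.10e-06).

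Members near Kupffer cell and regulatory genes differed less. Cdh5, the vascular cadherin that Kupffer cells also express, had a member 160 kb away with 17, 1.09, 20.3 and 17.2 in A/J and 40.9, 83.9, 59.1 and 72.9 in BALB/cJ, without overlap (log2 ratio -2.33 ± 0.38, edgeR adjusted p = 5.92e-05). Endothelial marker peaks ran the same way with overlap, at 38.2 to 103 in BALB/cJ controls and 22.4 to 50.1 in A/J. The part of endothelial cells in the Cdh5 difference was not tested. Mylip, an LXR target that degrades the LDL receptor, had one 134 kb away with 19.7, 22.5, 22.1 and 19.9 in C57BL/6J, against 51.4, 33.2, 65.8 and 61.6 in BALB/cJ (-1.34 ± 0.35, edgeR adjusted p = 0.00918). Smaller differences near Maf (-1.20 ± 0.38, edgeR adjusted p = 0.0368), Nfkbiz (-1.08 ± 0.27, edgeR adjusted p = 0.00641) and Klf4 (-1.22 ± 0.38, edgeR adjusted p = 0.0305) rested on single libraries. The Maf call was lost without any of 6 of the 8 libraries and the Klf4 call without any of 5, and the Nfkbiz ratio became -0.84 without BALB/cJ control 3 and -0.98 without C57BL/6J control 2.

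Strain differences after LPS followed those of the controls. Of 1927 members tested, 69 were called higher in C57BL/6J LPS (3.58%, against 2.45% of all peaks) and 111 higher in BALB/cJ LPS (5.76%, against 2.83%). Among the 1294 tested both in controls and after LPS, 158 were called in controls, 100 after LPS and 73 in both (46.2% and 73%), all 73 in the same direction, 29 higher in C57BL/6J and 44 higher in BALB/cJ, with r = 0.83 and rho = 0.57 across members from separate libraries. Over 44272 autosomal peaks these shares were 43.3% and 66.2%, with r = 0.73 and rho = 0.50. The count rested on the BALB/cJ LPS pair: it was 109 without the first and 68 without the second, in place of 180.

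Some members were high in 1 strain after LPS and near 0 in the other. Near Lnx1, an E3 ligase gene, BALB/cJ LPS had 109 and 104, against 11.9, 6.83, 18.8 and 26.8 in BALB/cJ controls, and C57BL/6J LPS had 0, 0.849 and 1.59 (edgeR adjusted p = 2.19e-08 between the LPS groups). The 3 tags in C57BL/6J LPS gave a ratio of 111 with a counting interval of 38.1 to 541. Near Stmnd1 BALB/cJ LPS had 44.4 and 48.4 and C57BL/6J LPS 0 in all 3, at least 48.6-fold lower (edgeR adjusted p = 1.30e-07). Near Jun, itself an AP-1 subunit gene, a member 157 kb away had 37.9, 49.2 and 63.7 in C57BL/6J LPS and 99.3 and 118 in BALB/cJ LPS (log2 ratio -1.09 ± 0.32, edgeR adjusted p = 0.0317). The Jun call was lost with the replicate block, at a log2 ratio of -1.0, and without any of 4 single libraries.

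The LPS response itself was called different between the strains at 1 of 3184 members (0.0314%), beside 0.145% of all peaks. At an unadjusted p below 0.05 there were 287, and DESeq2 called 3. That 1 member was the one near Fat4, which went from 0 in all 4 BALB/cJ controls to 2.61 and 4.40 after LPS and from 84.1, 99.5, 67.6 and 69.1 to 64.6, 89.2 and 113 in C57BL/6J (interaction -5.26 ± 1.00, edgeR adjusted p = 0.0107). The fitted size depends on the treatment of zero counts, and the call was lost with BALB/cJ control 4 thinned to the depth of the others (-4.56, edgeR adjusted p = 0.243) and without BALB/cJ LPS 2 (-4.82).

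In the hybrid both alleles share 1 nucleus, so the allele ratio can be set beside the strain ratio of separate mice. With variant-spanning tags in the 4 CB6F1/J controls, 96 members passed a minimum mean of 16, of which 5 were called higher on the C57BL/6J allele (5.21%, against 2.97% of all hybrid peaks tested) and 6 higher on the BALB/cJ allele (6.25%, against 3.10%). The BALB/cJ allele took 48.9 to 49.3% of all variant-spanning tags of these libraries. Of 93 members tested in both comparisons, 33 were called between strains and 11 between alleles, and the 11 were all among the 33 and had the same direction (33.3% and 100%, beside 30.0% and 77.6% over autosomal peaks). Across the 93 the ratios had r = 0.95 and rho = 0.81, with the few large ratios at either end. Over the 3724 autosomal peaks tested in both they were 0.79 and 0.59.

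**Figure D5:**
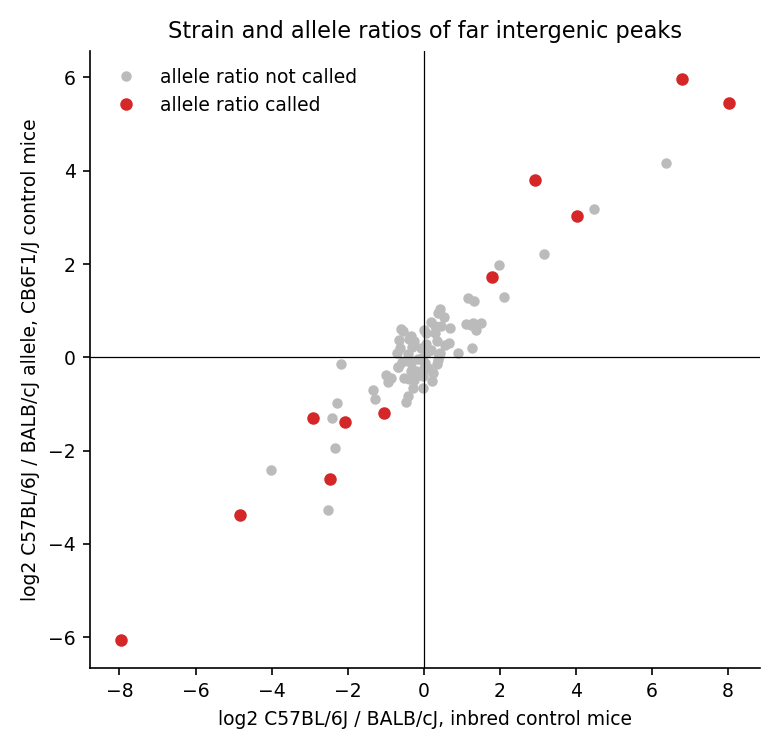
Log2 ratio of C57BL/6J to BALB/cJ alleles in CB6F1/J controls against the log2 ratio of C57BL/6J to BALB/cJ controls for the 93 far intergenic peaks tested in both, 1 point per peak, with the 11 whose allele ratio was called in red. Red points are spread over both ends, from an allele ratio of 5.97 at Cldn23 to -6.05 at B230214G05Rik.

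The 11 members called between alleles included these. At Cldn23 the C57BL/6J allele had 47.6, 80.7, 40.8 and 46.9 and the BALB/cJ allele 2.64, 0, 0 and 0 (log2 ratio 5.97 ± 0.76, edgeR adjusted p = 0.0222, beside 6.78 between strains). At Gm35496 they had 51.9, 63.9, 46.9 and 35.4 against 1.76, 0, 1.06 and 0.973 (5.45 ± 0.49, edgeR adjusted p = 0.0152, beside 8.03). The BALB/cJ allele was the high one at B230214G05Rik, with 72.3, 41.9, 37.0 and 52.6 against 2.60, 0, 0 and 0 (-6.05 ± 0.67, edgeR adjusted p = 0.0186, beside -7.96).

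Partial differences were seen as well. Zfp462 gave 16.4, 16.8, 12.2 and 3.83 on the C57BL/6J allele and 121, 135, 100 and 145 on the BALB/cJ allele (-3.37 ± 0.39, edgeR adjusted p = 0.0198, beside -4.84). At a member 127 kb from Itgb1, the integrin beta 1 gene, the alleles had 6.06, 4.48, 15.3 and 10.5 against 59.9, 44.2, 77.2 and 38.0 (-2.61 ± 0.32, edgeR adjusted p = 0.0208, beside -2.47). One 112 kb from App, the amyloid precursor gene, had 64, 61.6, 37.7 and 68.9 against 10.6, 3.49, 11.6 and 2.92 (3.02 ± 0.51, edgeR adjusted p = 0.0375, beside 4.03). Ppp1r3b, a glycogen-targeting phosphatase subunit gene, had one 167 kb away with 30.3, 33.6, 30.6 and 18.2 against 7.93, 6.99, 8.46 and 9.73 (1.72 ± 0.33, edgeR adjusted p = 0.0467, beside 1.79). The alleles did not overlap at any of these members. Without CB6F1/J control 1 no member was called, and with no term for the animal, that is without the replicate block, 18 were.

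By nearest gene, members were counted over lists of genes of this tissue, without a share over all genes to set beside them. Of 30 Kupffer cell identity genes, 6 were the nearest gene of 61 members. After LPS, 9 of 59 were called higher and 1 lower in C57BL/6J (median log2 ratio 0.13) and 14 of 61 higher and 3 lower in BALB/cJ (median 0.26), near the shares of all members. The list of AP-1, ATF, EGR and MAF genes had 66 members at 4 of 28 genes, with 13 of 64 higher and 6 lower in C57BL/6J (median 0.14) and 15 of 66 higher and 10 lower in BALB/cJ (median -0.18). Transcription factors with distant enhancers in other tissues had 24 members at 7 genes, with 6 higher and 1 lower in each strain (medians 0.50 and 0.43). NF-kB components were represented by Nfkbiz alone, with 6 members (2 higher after LPS in C57BL/6J, 1 in BALB/cJ) and LPS-inducible cytokines by Il6 alone, with 3 members (2 and 1). LXR targets had 5 members, all near Mylip, none called after LPS in either inbred strain. No member was nearest to any of 32 interferon response or 14 MHC genes. Without the share over all genes, these counts do not show that any pathway had more or fewer members than others.

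Around Prdm1, members near 1 gene moved both ways. Of its 40, 9 of 39 tested were called higher and 5 lower in C57BL/6J and 11 of 40 higher and 7 lower in BALB/cJ, and none of 27 tested differed between the controls of these strains. The longest run, chr10:44657108-44704441, held 16 of these in 47.3 kb, with mean counts from 4.37 to 166, and 4 of 15 were called higher and 1 lower in C57BL/6J and 6 of 16 higher and 1 lower in BALB/cJ. A run of equal number near 4930563J15Rik gave 2 higher and 1 lower in C57BL/6J, and those near Hivep2 (15 members), Zeb2 (15) and Tbl1xr1 (14) gave 1, 1 and 3 higher and none lower. Near Klf4 the 29 members split evenly, 4 higher and 4 lower in C57BL/6J against 4 and 5 in BALB/cJ. Near Adgrl2 4 of 22 and 8 of 24 were called higher and none lower.

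The members of highest count were rarely called, again without shares of all autosomal peaks by count beside them. The 8 with the highest mean counts, near Akr1e1 (459), Plpp3 (332), Zmynd11 (321), Basp1 (318), Cxcr4 (311), Tmem17 (296), Marcks (294) and Hif1a (291), were called in no comparison of inbred libraries, with the exception of Tmem17 after LPS in BALB/cJ (339, 410, 325 and 309 against 176 and 161, a log2 ratio of -1.03 ± 0.19, edgeR adjusted p = 6.02e-05). Cxcr4 encodes a chemokine receptor, and its member had 330, 422, 309 and 362 in A/J controls, 291, 374, 400 and 279 in BALB/cJ and 341, 366, 345 and 310 in C57BL/6J, the 3 strains overlapping. After LPS it had 278, 262 and 225 in C57BL/6J (-0.42 ± 0.15, edgeR adjusted p = 0.0377) and 203 and 190 in BALB/cJ (-0.77 ± 0.18, edgeR adjusted p = 0.000871), both below their controls and short of the ratio needed for a call. Hif1a encodes the hypoxia-inducible factor subunit that LPS also induces. Its member had 266, 294, 310 and 257 in C57BL/6J controls against 337, 319 and 273 after LPS (0.14 ± 0.15, edgeR adjusted p = 0.536), with overlap, and 311, 363, 345 and 316 against 243 and 230 in BALB/cJ (-0.50 ± 0.17, edgeR adjusted p = 0.0257), without it. Both peaks hold AP-1 letters, as printed above.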

How the data were processed

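ATAC-seq tags were analysed in 26 libraries of sorted mouse Kupffer cells. The authors trimmed reads, aligned them with Bowtie2 to strain genomes made from mm10 with SNPs and indels, shifted the alignments to mm10 and built HOMER tag directories (tools per the labels, without versions). The deposited tables hold raw tag counts in 1000-bp windows centred on merged reproducible peaks. The deposited control and hybrid values are estimated counts in steps of 0.5, which were rounded up. The authors' single-library peak lists give a normalised signal and were used only to count lists and read library totals of 8.76 to 25.4 M tags, or 178 M for BALB/cJ control 4. For hybrids the authors kept perfectly mapped reads and, separately, those spanning a parental variant. Of the perfectly mapped tags, only those on mm10 were used here. Larger structural variants are not in the strain genomes, so a window deleted in a strain would read 0. Of the hybrid columns 27 were not used, and no fold changes of the authors were used.

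The 17 inbred libraries were fitted in 1 edgeR 4.0.16 quasi-likelihood model (R 4.3.3, TMM, a mean per group) over all nuclear peaks. Peaks were tested above a mean normalised count of 16 (strains, alleles) or 4 (LPS), and called at adjusted p below 0.05 and absolute log2 ratio above 1. The 9 hybrid libraries were fitted separately, the allele comparison with a term per animal. Group sizes follow the labels; a legend of the study gives those of its inbred LPS groups the other way round. Members were matched to hybrid peaks by 50% reciprocal overlap. Code was tested on simulated data. DESeq2 1.42.0, other scalings, minimum counts, rounding, thinning of BALB/cJ control 4, a replicate block and leaving out each library were tried as alternatives. Sequences and GC content came from RefSeq's mm10 assembly. Normalised counts are tags divided by the effective library size relative to the geometric mean. Counting intervals are exact at 95% and, like floors of 3 tags, cover counting error only.

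Named members were, per comparison, the 5 called members with the largest absolute log2 ratio in each direction and no overlap between groups (1 per nearest gene; for the alleles and the strain difference in the LPS response, the 5 with the smallest p), the 8 of highest mean count, the called member of smallest p for each gene list and the 5 longest runs; of these, those shown were chosen after their values were seen. Members and lists were chosen with earlier results of these data known.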

Additional observations from a re-analysis of the deposited data

Results flagged for a closer look

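Of 54 groups of library values tested for a library that stands apart from its group (Dixon's gap over range), 5 held one, and chance alone gives about 1 in 20. At the B230214G05Rik member at chr15:88101480-88101680, BALB/cJ control 2 had a normalised count of 21.5 and the other 3 BALB/cJ controls 47.5 to 50.9. The Pantr1 member had 1.32 in BALB/cJ control 1 and 0 in the other BALB/cJ controls. C57BL/6J control 2 had 0 both at the other B230214G05Rik member and at the 1700016G22Rik member, where the remaining C57BL/6J controls had 1.16 to 1.33, that is about 1 tag. At the Klf6 member at chr13:6102392-6102592, C57BL/6J control 1 had 0.580 and the others 0. The effect of LPS differed between C57BL/6J and BALB/cJ at the Fat4 member by -5.26 on the log2 scale in the test of the difference itself.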

How the results depend on the processing

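Among 52 named results, 655 of 712 values under alternatives kept both direction and call, 55 lost the call and 2 changed direction: with all perfectly mapped tags the Plk2 log2 ratio in CB6F1/J became 0.20 and that of Zfat 1.41. With no minimum count, 419 members were called for C57BL/6J against BALB/cJ controls, 273 for A/J against BALB/cJ, 341 for A/J against C57BL/6J, 290 for the strains after LPS and 0 for alleles, and with the minimum doubled 89, 86, 79, 83 and 5. Leaving out single libraries gave 132 to 224, 106 to 174, 141 to 173 and 68 to 163 calls for these strain comparisons, 0 to 8 for alleles (0 without CB6F1/J control 1, 7 without 3 and 6 without 4), 409 to 840 for LPS in C57BL/6J, 545 to 974 in BALB/cJ and 135 to 157 in CB6F1/J, and 0 to 4 for the strain difference in the LPS response. That last count was 0 among members without an overlapping window, 0 with BALB/cJ control 4 thinned, 3 with DESeq2, 2 without BALB/cJ control 2 or C57BL/6J control 4, 4 without BALB/cJ LPS 1 and 0 without BALB/cJ LPS 2. All perfectly mapped tags gave 1047 LPS calls in CB6F1/J in place of 154, over more members tested. DESeq2 gave 19 allele calls. Members over 200 kb were called in 14.1% of cases for A/J against BALB/cJ, beside 10.8% of all members. Where no value shows the reason, the cause was not tested. The tag share gained after LPS stayed between 0.436 and 0.557 percentage points for C57BL/6J, 0.451 and 0.634 for BALB/cJ and 0.266 and 0.319 for CB6F1/J without single libraries, and the AP-1 share between 5.12 and 8.39, 8.82 and 9.71, and 10.0 and 10.3 points.

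The replicate block gave 196, 180, 192 and 244 calls for the strain comparisons above (189, 160, 178 and 180 without it), 656, 964 and 151 for LPS in C57BL/6J, BALB/cJ and CB6F1/J (682, 969 and 154) and 3 for the interaction of strain and LPS (1), and 18 allele calls came without the replicate block (11 with it). Same-numbered inbred libraries share only a number: their deviations correlated at -0.097 to 0.088 (C57BL/6J LPS and control), -0.012 to 0.090 (BALB/cJ LPS and control), 0.059 to 0.286 (BALB/cJ and C57BL/6J controls), 0.051 to 0.101 (the LPS groups), 0.054 to 0.375 (A/J and BALB/cJ) and 0.076 to 0.235 (A/J and C57BL/6J). Between 1 of 6 libraries (C57BL/6J LPS and control) and 3 of 4 (the LPS groups) correlated best with their own number.

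At these depths, members with a mean normalised count under the minimum went untested, and counts of a few tags give wide intervals.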
